A study of Homo sapiens with 2 samples.

Results

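The transcription factors that drive epithelial-to-mesenchymal transition (EMT) were followed through the induction of human enteric neural crest. The set holds 8 of the 33694 genes counted: SNAI1, SNAI2, TWIST1, TWIST2, ZEB1, ZEB2, MSX1 and PRRX1. They were chosen by name as regulators of EMT and of mesenchymal fate, with no threshold on measured values, and each has its own row in both count tables. H9 human embryonic stem cells, an established cell line, were differentiated with BMP and WNT activation and retinoic acid on Geltrex. They were sampled at day 10 (D10) as adherent cultures of enteric neural crest cells (ENCCs). Every induction medium also held the compound SB431542, while BMP4 was in the first medium only and retinoic acid in the last. A second sample was taken at day 15 (D15), after the monolayer had been detached and grown in suspension as free-floating enteric crestospheres. These were kept in NC-C medium with FGF2 and the WNT pathway activator CHIR, for which SB431542 is not listed. Each stage is 1 droplet library made with a 10x Genomics 3′ kit, into which cells of 2 biological repeats were pooled. The repeats are not separated in the cell annotation, so no replicate error could be computed. Day, culture format, medium, sequencing depth and library changed together and cannot be told apart.

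During EMT, epithelial cells lose junctions and apicobasal polarity and gain the ability to migrate, and neural crest cells pass through this step when they leave the neural tube. SNAI and ZEB proteins are zinc-finger repressors that bind E-box motifs at epithelial genes such as CDH1, which encodes E-cadherin. TWIST proteins are basic helix-loop-helix factors that pair with E-proteins, whereas MSX1 and PRRX1 are homeobox factors of craniofacial and limb mesenchyme. In neural crest, SNAI2 marks premigratory and migrating cells, ZEB2 is needed for enteric nervous system formation and is mutated in Mowat-Wilson syndrome, and TWIST1 favours mesenchymal over neuronal and glial fates.

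In the GENCODE 29 annotation of GRCh38, PRRX1 lies at chr1:170662728-170739419 on the plus strand and MSX1 at chr4:4859666-4863936 on the plus strand. ZEB2 (chr2:144364364-144524583, minus strand) and TWIST2 (chr2:238848032-238910543, plus strand) share a chromosome. TWIST1 lies at chr7:19020991-19117672 on the minus strand, ZEB1 at chr10:31318495-31529814 on the plus strand and SNAI1 at chr20:49982999-49988886 on the plus strand. ZEB1 and ZEB2 each have an antisense gene with its own row. ZEB1-AS1 held 480 unique molecular identifiers (UMIs, each standing for 1 captured RNA molecule) at D10 and 498 at D15, and ZEB2-AS1 held 131 and 167.

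The motif that SNAI and ZEB proteins bind was looked up in front of the epithelial genes described below. CAGGTG, or CACCTG on the same strand, occurred in the 250 bases before the start site of 6143 of 35116 RefSeq promoters of GRCh38.p14 (17.5%). Of the 20 epithelial genes listed for this purpose, 10 had a promoter entry, with 15 start sites, and 7 of these 15 (46.7%) held the motif. CRB3, which encodes an apical polarity protein, had 5 copies, and 26 of all promoters (0.074%) had at least as many. CLDN7, a tight-junction claudin, had 4 copies at one start site and 0 at its other, and 43 promoters (0.122%) had at least 4. DSP, which encodes the desmosomal protein desmoplakin, had 2, and RAB25, a GTPase of apical recycling, had 1. OCLN had 1 at each start site, and TJP1 had 1 at 1 start site and 0 at its others. CLDN3, CLDN4, CLDN6 and KRT8 had an entry with 0 copies, and CDH1 had no entry. Of the 8 factors, 5 had an entry, with 11 start sites, and only 2 of these, both of ZEB1, held the motif. The sites below come from CRB3, CLDN7, DSP and RAB25, whose levels are set against the factors in the epithelial class. Not every copy is shown for CRB3, CLDN7 and DSP. Each is written 5′ to 3′ on the strand of its gene with 1 E-box in capitals and 12 bases on either side. The CLDN7 stretch 20 bases before the start also holds the copy 9 bases before the start, left in lower case. A match is a run of letters and not evidence of binding.
CRB3, chr19:6464031-6464060, plus strand, 228 bases before the start: atgctcgcaatgCAGGTGtaaggtccccct
CRB3, chr19:6464112-6464141, plus strand, 147 bases before the start: ggggtcccgttaCAGGTGcgcccacagcgc
CRB3, chr19:6464199-6464228, plus strand, 60 bases before the start: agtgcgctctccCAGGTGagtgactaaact
CLDN7, chr17:7262596-7262625, minus strand, 135 bases before the start: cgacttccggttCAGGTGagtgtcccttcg
CLDN7, chr17:7262481-7262510, minus strand, 20 bases before the start: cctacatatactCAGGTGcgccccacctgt
DSP, chr6:7541574-7541603, plus strand, 85 bases before the start: gaagaaaccggcCAGGTGtggcctaggcgc
RAB25, chr1:156061107-156061136, plus strand, 41 bases before the start: catctctccaccCACCTGggccccaggtct

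The D10 library held 9627 cells and 70488169 UMIs, with a median of 6713 per cell, and the D15 library held 6320 cells and 84976253 UMIs, with a median of 11770.5. The authors assigned cells to classes. At D10 these were ENCCs (4921 cells, most in numbered subclusters ENCC 1 to 4), neuro-epithelial progenitors (NEP, 1811), cranial placode (CP, 324) and non-neural ectoderm (NNE, 239). At D15 they were ENCCs (4934 cells, ENCC 1′ to 4′), CP1 (208), NEP (104), mesenchymal cells (Mes, 47) and CP2 (43). The ENCCs outside the numbered subclusters, 256 at D10 and 27 at D15, carry the authors' subtype label Non-NC, where NC is neural crest. Values for ENCCs as a whole include them. A further 2332 cells at D10 and 984 at D15, holding 21.5% and 29.0% of all UMIs, were marked as removed by the authors' quality filter, and 102 barcodes occurred in both libraries. The 6 ENCC markers summed to 1776 and 1128 CPM (counts scaled to the same UMI total in every class) in the ENCCs of D10 and D15, and the 6 NNE markers to 5333 CPM in NNE. The markers of the D15 NEP class were mixed. Its NEP markers summed to 284 CPM, against 25.0 CPM in the D15 ENCCs and 420 CPM in CP2. Its NNE markers summed to 927 CPM, against 11.4 CPM in the D15 ENCCs and 204 CPM in CP2. In the D10 NEP class the NEP markers summed to 1420 CPM, with the NNE markers at 1299 CPM beside them. In Mes, 7 of 8 mesenchymal markers were detected, but COL1A1 was at 3.57 CPM, POSTN at 0 and COL1A2 at 166 CPM against 146 CPM in ENCCs, while LUM, which encodes lumican, was at 778 CPM.

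Throughout, a level is the CPM of the UMIs summed over the cells of a class, with an exact Poisson 95% interval, and a ratio of levels carries an exact binomial interval. Both cover counting error only. A gene with 0 UMIs is bounded at a floor of 3 UMIs, which is 0.0426 CPM over the whole D10 library and 0.0353 CPM over D15. Levels are compared within a gene and not between genes. A gene is called higher or lower past a 2-fold ratio if the compared cells held at least 50 of its UMIs, and the share of all such genes called is printed as background. In sums over all cells, a different number of expressing cells and a different amount of RNA per cell cannot be told apart.

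**Figure D1:**
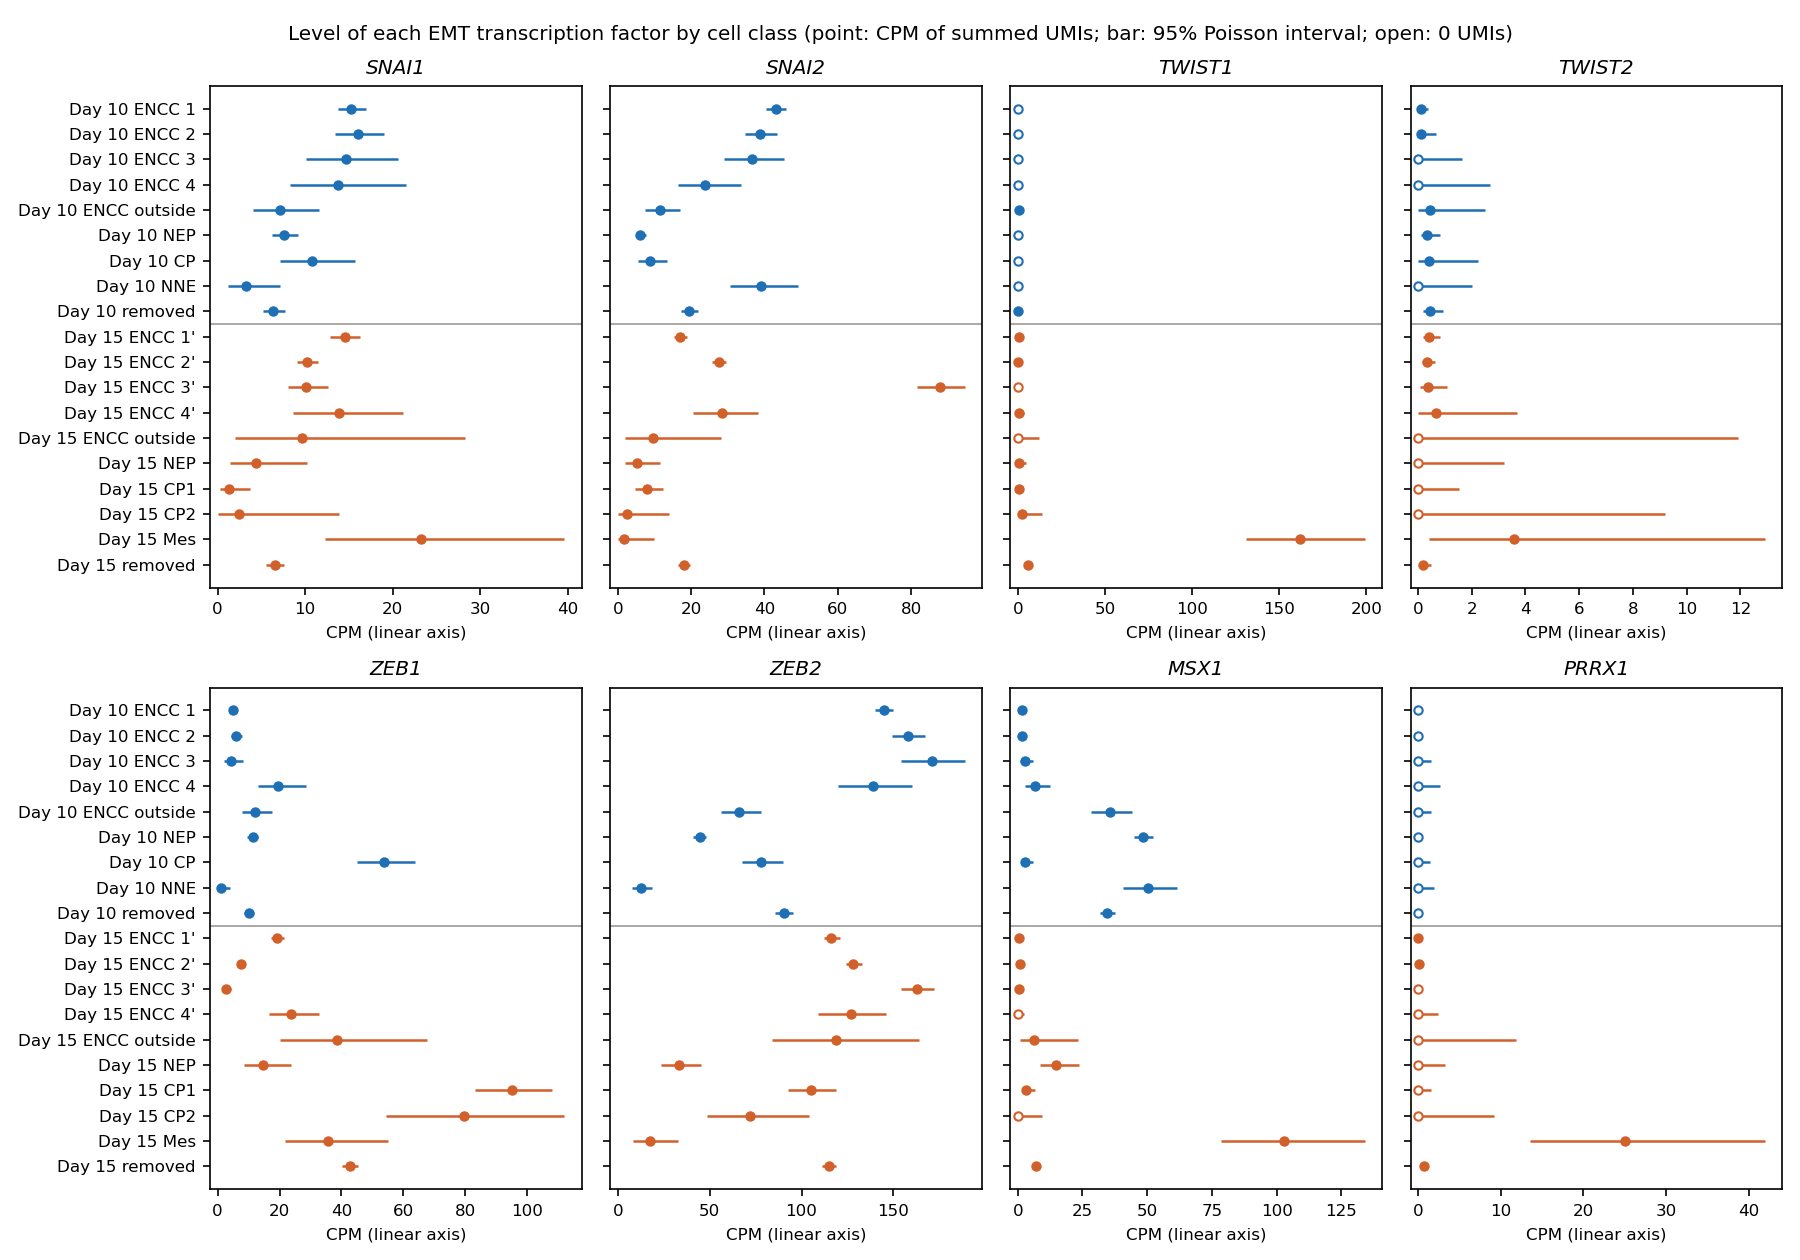
Level of each of the 8 factors (CPM, linear axis, 1 panel per gene) in each class at D10 (blue) and D15 (orange). Points are levels and bars are 95% Poisson intervals, with open points where no UMI was found. TWIST1, MSX1 and PRRX1 peaked in Mes at D15, ZEB1 in CP1, and SNAI2 in ENCC 3′ at 87.9 CPM.

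Over all cells, TWIST1 and ZEB1 were more than 2-fold higher at D15 than at D10 and MSX1 more than 2-fold lower, while SNAI1, SNAI2 and ZEB2 had ratios between 0.888 and 1.14. Of the 8 factors, 6 had enough UMIs, with 2 called higher against a background of 11.7% of 15254 genes, and 1 called lower against 16.2%. TWIST1 had 4 UMIs at D10 (0.0567 CPM) and 252 at D15 (2.97 CPM), a ratio of 52.3 (20.2 to 193). ZEB1 was at 9.56 CPM at D10 and 23.4 CPM at D15, a ratio of 2.44 (2.24 to 2.67), which was 1.64 in the cells that the authors kept. MSX1 was at 20.5 CPM at D10 and 3.54 CPM at D15, a ratio of 0.173 (0.152 to 0.196). For each of these 3 factors, more of the D15 UMIs lay in cells that the authors had removed than in the cells they kept.

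PRRX1 had 0 UMIs at D10 and 37 at D15, which makes it at least 10.2-fold higher at D15 against the floor. TWIST2, the close relative of TWIST1, had 18 UMIs at D10 and 28 at D15 (ratio 1.29, 0.689 to 2.48). Its interval covers no difference. SNAI2 was at 27.2 CPM and 27.1 CPM (ratio 0.994, 0.935 to 1.06). SNAI1 was at 11.1 CPM and 9.87 CPM, a ratio of 0.888 (0.804 to 0.980) that turned to 1.02 when the libraries were scaled by TMM, the trimmed mean of M-values. ZEB2 was at 107 CPM and 122 CPM (ratio 1.14, 1.11 to 1.17). The median gene differed by −0.19 on the log2 scale between D15 and D10, and TMM scaling shifted every ratio by 0.20, so that the small differences of SNAI1, SNAI2 and ZEB2 were of the size of this shift. On the log2(CPM + 1) scale, the median difference of the tested factors was 0.09 and that of all tested genes −0.15.

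**Figure D2:**
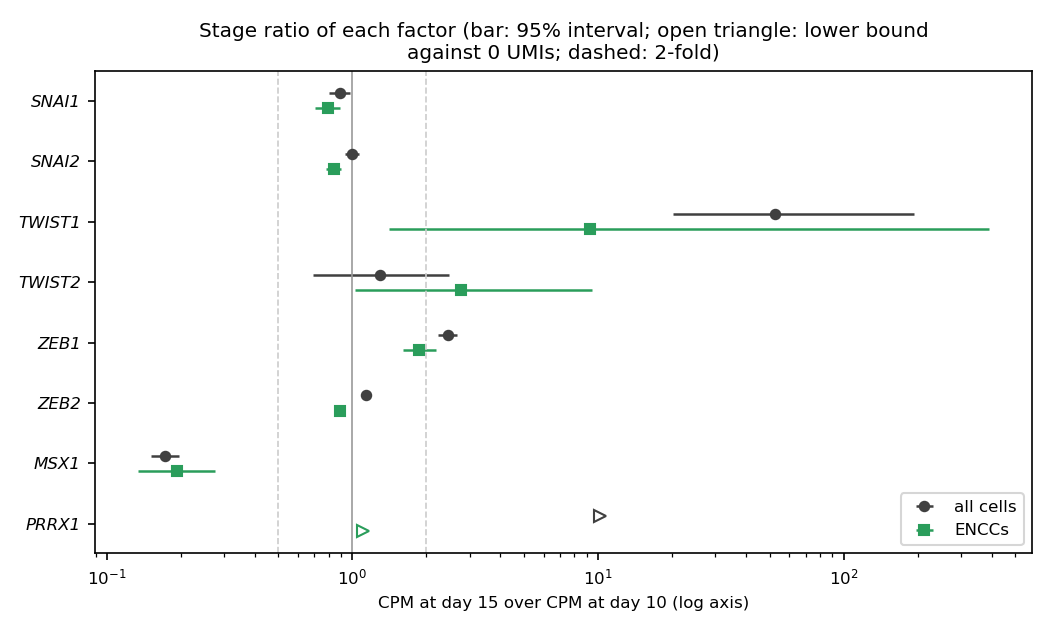
Ratio of D15 to D10 level for each factor (log axis) over all cells (black circles) and within ENCCs (green squares), with 95% binomial intervals and dashed lines at 2-fold. The open triangle is a lower bound for PRRX1, which had 0 UMIs at D10. In these CPM ratios, MSX1 lay below the lower line in both sets, at 0.173 and 0.194, and ZEB1 passed the upper line over all cells only.

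Within ENCCs, MSX1 was the only factor called by CPM. Of 5 factors with enough UMIs, 0 were called higher (background 11.1% of 13216 genes) and 1 was called lower (background 10.7%). MSX1 was at 3.87 CPM at D10 and 0.752 CPM at D15 (ratio 0.194, 0.134 to 0.276). However, 80 of its 143 D10 UMIs came from the 256 ENCCs outside the numbered subclusters, which the authors labelled Non-NC. With the numbered subclusters alone the ratio was 0.397. In those 256 cells MSX1 was at 35.6 CPM, against 1.52 to 6.52 CPM in ENCC 1 to 4. The same 256 cells had NEP markers at 1129 CPM, NNE markers at 899 CPM and ENCC markers at 507 CPM, compared with 1926 CPM for the ENCC markers in ENCC 1. The part of these markers in the MSX1 level was not tested.

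The other 4 factors with enough UMIs stayed within 2-fold in ENCCs by CPM. ZEB1 was at 6.14 CPM at D10 and 11.4 CPM at D15 (ratio 1.86, 1.60 to 2.18), the largest ratio of the 4. With TMM scaling the ZEB1 ratio became 2.12, past the 2-fold line. SNAI1 was at 14.8 CPM and 11.8 CPM (ratio 0.793, 0.707 to 0.890), and SNAI2 at 39.1 CPM and 32.8 CPM (ratio 0.838, 0.782 to 0.898). ZEB2, from 145 CPM to 129 CPM, had a ratio of 0.894 (0.863 to 0.926) that became 1.02 with TMM scaling. The remaining factors had too few UMIs for a call. TWIST1 had 1 UMI in the D10 ENCCs and 14 in the D15 ENCCs (ratio 9.26, 1.41 to 392), and TWIST2 had 5 and 21 (ratio 2.78, 1.02 to 9.43). PRRX1 had 0 and 5. The 14 TWIST1 UMIs lay in 14 different cells of 4934, so that TWIST1 in the D15 ENCCs was close to the limit of detection.

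The shares of cells with a UMI depended on depth. The share of ENCCs with a SNAI2 UMI was 24.0% at D10 and 25.8% at D15, but after each cell was thinned at random to 3000 UMIs it was 10.3% (9.51 to 11.2) and 9.10% (8.31 to 9.94). For ZEB2 the share was 63.3% and 71.6% as sequenced, and 35.6% (34.3 to 37.0) and 31.8% (30.5 to 33.1) at equal depth. For SNAI1 it was 10.3% and 12.3% as sequenced and 4.21% (3.66 to 4.81) and 3.51% (3.01 to 4.06) at equal depth. For these 3 factors the share was higher at D15 as sequenced and lower at D15 at equal depth. At equal depth the intervals of the stages overlapped for SNAI1 and SNAI2 and were clear of each other for ZEB2. ZEB1 kept its direction, with 4.39% and 11.1% as sequenced and 1.73% (1.38 to 2.13) and 3.30% (2.82 to 3.84) at equal depth.

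SNAI2, the repressor most used to mark neural crest, was unevenly spread over the ENCC subclusters at D15. ENCC 3′ had 87.9 CPM (81.6 to 94.5), ENCC 4′ had 28.4 CPM (20.5 to 38.2), ENCC 2′ had 27.6 CPM (25.6 to 29.6) and ENCC 1′ had 17.1 CPM (15.3 to 19.0). The interval of ENCC 3′ was clear of the next, and that of ENCC 2′ was clear of ENCC 1′. In ENCC 3′, 403 of 727 cells (55.4%) had a SNAI2 UMI, 191 had 2 or more and 1 cell had as many as 9, whereas 1 of 47 Mes cells (2.13%) had one, at median depths of 10953 and 12291 UMIs. Thinned to 3000 UMIs, the shares were 22.3% (19.3 to 25.5) in ENCC 3′ and 4.86% (3.88 to 6.01) in ENCC 1′. ENCC 3′ thus held 31.3% of all SNAI2 UMIs of the D15 library and 9.64% of the UMIs of all genes. All 3 markers of melanoblasts, the pigment cell precursors of the crest, were also higher in ENCC 3′ than in the other numbered ENCCs, summing to 687 CPM against 118 CPM, with PMEL at 551 CPM against 76.7 CPM, DCT at 52.1 CPM against 5.22 CPM and MITF at 83.7 CPM against 36.2 CPM. By subcluster, the sum was 303 CPM in ENCC 4′, with each marker at 40.9 CPM or more, 126 CPM in ENCC 2′ and 92.8 CPM in ENCC 1′. Outside the crest it was 396 CPM in CP2, of which 1 marker made up 393 CPM. The part of these markers in the SNAI2 level was not tested. At D10 SNAI2 was flatter across the subclusters, at 43.1, 38.8, 36.5 and 23.9 CPM in ENCC 1 to 4.

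ZEB1 ran the other way. At D15 ENCC 3′ had 2.81 CPM (1.78 to 4.21), ENCC 2′ had 7.53 CPM (6.52 to 8.64), ENCC 1′ had 19.3 CPM (17.3 to 21.4) and ENCC 4′ had 23.7 CPM (16.6 to 32.9). Set against the other numbered ENCCs, ENCC 3′ had a SNAI2 ratio of 3.76 (3.42 to 4.13) and a ZEB1 ratio of 0.220 (0.138 to 0.333). ZEB2 was at 163 CPM and 123 CPM (ratio 1.32, 1.24 to 1.40) and SNAI1 at 10.1 CPM and 12.1 CPM (ratio 0.840, 0.659 to 1.06). Of 4 factors with enough UMIs, 1 was called higher against a background of 1.37% of 12074 genes and 1 was called lower against 3.37%. The subclusters were defined by the authors on the expression of all genes, so these values describe them and do not test them. Among the D15 ENCCs, 91 cells held both a SNAI2 and a ZEB1 UMI, where the product of the 2 shares gives 141 cells, and at equal depth the numbers were 8 and 14.8. The pooled gap includes the difference between subclusters, within which the numbers were 49 and 51.4 in ENCC 1′, 33 and 43.7 in ENCC 2′, 2 and 10.5 in ENCC 3′ and 7 and 6.09 in ENCC 4′.

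ZEB2, which acts in enteric neural crest itself, was present throughout the crest. It ranged from 139 to 171 CPM over ENCC 1 to 4 and from 116 to 163 CPM over ENCC 1′ to 4′, and was lowest in NNE at D10 (12.5 CPM, 7.90 to 18.7) and in Mes at D15 (17.8 CPM, 8.55 to 32.8). At D10 every numbered ENCC subcluster lay above CP (78.2 CPM), NEP (44.5 CPM) and NNE, and the intervals of NEP and NNE did not overlap. The difference from NEP amounted to a ratio of 0.308 (0.283 to 0.335) to ENCCs.

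SNAI1 was within 2-fold over the numbered crest subclusters. It ranged from 13.8 to 16.0 CPM over ENCC 1 to 4 and from 10.1 to 14.5 CPM over ENCC 1′ to 4′, and at D15 the interval of ENCC 1′ (14.5 CPM, 12.8 to 16.3) was clear of those of ENCC 2′ (10.2 CPM, 9.07 to 11.5) and ENCC 3′ (10.1 CPM, 8.07 to 12.6). Its lowest level was 1.26 CPM in CP1, from 3 UMIs, a ratio of 0.107 (0.0220 to 0.313) to the D15 ENCCs. In NEP at D10 it was at 7.62 CPM (ratio 0.514, 0.414 to 0.633). ENCC 3′ was therefore highest in SNAI2 and not in SNAI1.

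**Figure D3:**
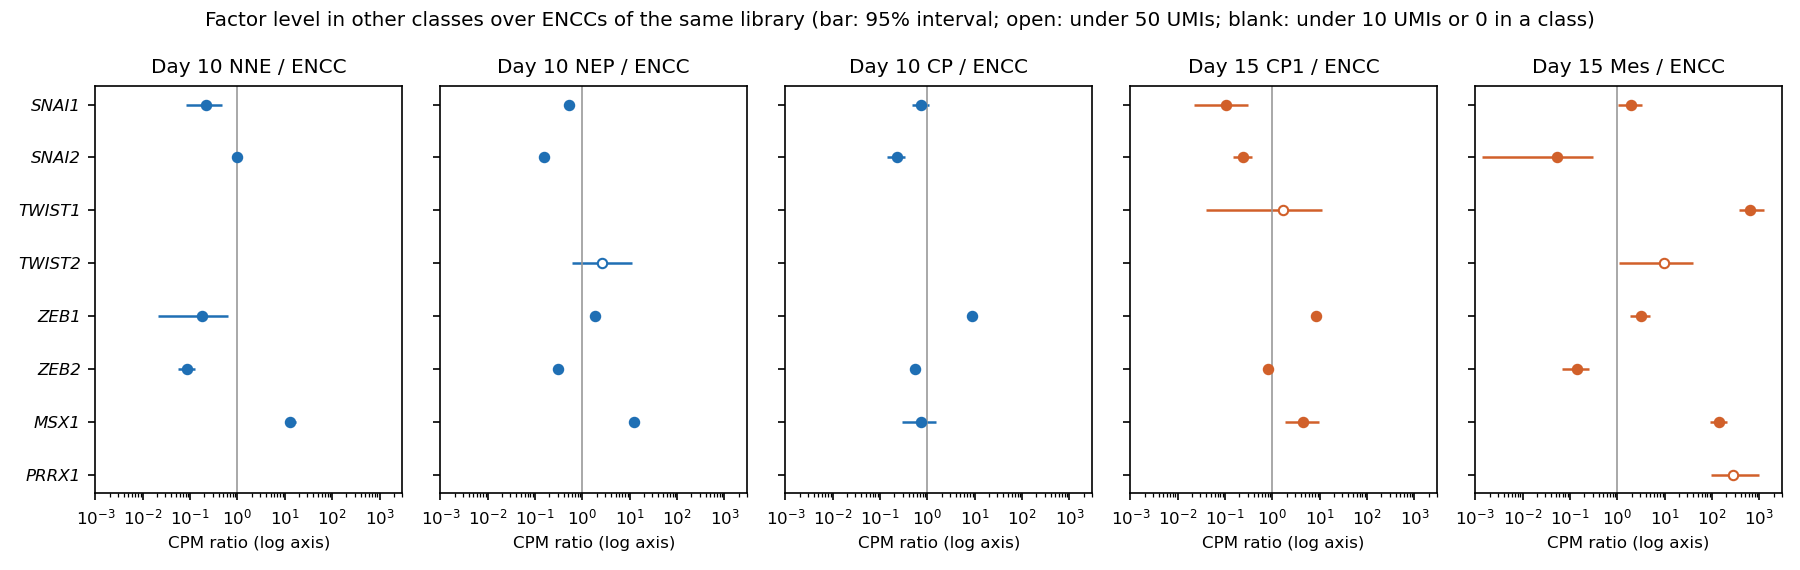
Ratio of the level of each factor in a class to that in ENCCs of the same stage (log axis), with 95% binomial intervals. Open symbols rest on under 50 UMIs and blank places on under 10 UMIs or on 0 UMIs in a class. ZEB1 lay above 1 in CP and CP1, at 8.76 and 8.31, and the ratios of TWIST1, MSX1 and PRRX1 in Mes were above 100.

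The placode classes stood out by ZEB1. At D10 it was at 53.8 CPM (45.1 to 63.7) in CP against 6.14 CPM in ENCCs, a ratio of 8.76 (7.03 to 10.9), and at D15 CP1 held 227 ZEB1 UMIs, a level between 83.1 and 108 CPM against 11.4 CPM in ENCCs, a ratio of 8.31 (7.11 to 9.68). CP2 had 79.6 CPM (54.4 to 112). At equal depth, 17.0% of CP cells and 19.7% of CP1 cells had a ZEB1 UMI, whereas 0 of 235 NNE cells did, which allows a share of up to 1.28%. ZEB2 did not follow ZEB1, at 78.2 CPM in CP (ratio 0.541) and 105 CPM in CP1 (ratio 0.813, 0.714 to 0.923). SNAI2 was below its ENCC level in both, at 8.77 CPM in CP (ratio 0.224, 0.140 to 0.341) and 7.95 CPM in CP1 (ratio 0.243). Neuronal markers summed to 1886 CPM in CP1 and 3838 CPM in CP2, against 20.5 CPM in the D15 ENCCs. The part of those markers in the ZEB1 level was not tested.

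ZEB1 was also high in the cells that the authors had removed at D15, at 42.6 CPM (40.1 to 45.3). They held 1050 of its UMIs, 52.9% of the D15 total, and 29.0% of the UMIs of all genes. In the removed cells, neuronal markers summed to 770 CPM and placode markers to 283 CPM, against 20.5 and 8.18 CPM in the D15 ENCCs. The removed cells were deeper than the rest, with a median of 21367 UMIs.

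Non-neural ectoderm, the epithelial class of D10, had lower levels of 3 factors and a higher level of MSX1. Of 5 factors with enough UMIs, 1 was called higher than in ENCCs (background 12.9% of 11847 genes) and 3 were called lower (background 10.7%). ZEB2 was at 12.5 CPM against 145 CPM (ratio 0.0862, 0.0546 to 0.129), ZEB1 had 2 UMIs in NNE (ratio 0.176, 0.0212 to 0.644) and SNAI1 had 6 (ratio 0.219, 0.0801 to 0.480). SNAI2 was at 39.0 CPM in NNE and 39.1 CPM in ENCCs (ratio 0.997, 0.776 to 1.26), and at equal depth 11.5% of NNE cells and 10.3% of ENCCs had a UMI. SNAI2 was therefore the SNAI or ZEB factor without a called difference between the epithelial class and the crest.

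The epithelial genes were present in that class at high levels. Of the 20 listed, 15 had enough UMIs, with 14 called higher in NNE (background 12.9% of 11847 genes) and none lower (background 10.7%). Their median was 5.65 on the log2(CPM + 1) scale against 0.08 for all tested genes. Some listed genes reached the UMI minimum only through NNE, such as CDH1 with 174 UMIs there and 13 in ENCCs. The count thus describes an epithelial class and does not test it. CDH1 was at 94.2 CPM against 0.352 CPM (ratio 268). The genes whose E-boxes are printed above lay with it, CLDN7 at 349 CPM against 0.677 CPM, DSP at 180 CPM against 3.30 CPM, RAB25 at 159 CPM against 1.89 CPM and CRB3 at 26.5 CPM against 0.0812 CPM. CDH1 and EPCAM are among the genes by which the authors named the class, so their levels there describe the naming. TJP1, a junction scaffold also made in mesenchymal cells, was the one epithelial gene called in neither direction, and it held the motif at 1 start site. KRT8, whose promoter entry had 0 copies, was also among the 14 called higher. A link between the motif and the level of a gene was not tested. Single NNE cells held both kinds of mRNA. Of 239 NNE cells, 52 had a SNAI2 UMI, of which 25 also had a CDH1 UMI, 47 a CLDN7 UMI and 6 a CRB3 UMI, where the products of the shares give 25.2, 43.7 and 8.92 cells.

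MSX1, a target of BMP signalling in ectoderm and mesenchyme, was higher in NNE and NEP than in the crest at D10, but not in CP. It was at 50.4 CPM (40.7 to 61.7) in NNE and 48.4 CPM (44.9 to 52.2) in NEP, against 3.87 CPM in ENCCs, for ratios of 13.0 (9.91 to 17.0) and 12.5 (10.4 to 15.1). CP was at 2.79 CPM (ratio 0.721, 0.285 to 1.53). NEP held 47.1% of the MSX1 UMIs of D10. At D10, 24.5% of NEP cells and 27.2% of NNE cells had a MSX1 UMI, against 2.52% of ENCCs, at median depths of 7227, 7349 and 7004 UMIs. BMP4, a ligand that induces MSX1, was at 147 CPM in NNE and 117 CPM in NEP against 6.87 CPM in ENCCs. MSX2, the close relative of MSX1, was at 196 CPM in NNE against 5.17 CPM.

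At D15, MSX1 was at 103 CPM (78.5 to 134) in Mes, where 58 UMIs were counted, against 0.752 CPM in ENCCs, a ratio of 138 (90.9 to 210). TWIST1 was at 162 CPM (131 to 199) in Mes against 0.251 CPM (ratio 647, 367 to 1231), and 37 of 47 Mes cells (78.7%) had a UMI against 0.284% of ENCCs, at median depths of 12291 and 11082 UMIs. The authors describe the Mes cluster by these 2 factors, and their list of annotation genes for mesenchymal cells also holds PRRX1, so the levels of all 3 factors there describe the naming. PRRX1 was at 25.0 CPM (14 UMIs) in Mes and 0.0895 CPM (5 UMIs) in ENCCs, a ratio of 279 (94.9 to 989) that rests on 19 UMIs. PRRX2, its relative, also had 14 UMIs in Mes (25.0 CPM against 0.304 CPM).

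The other factors separated in Mes. ZEB1 was at 35.7 CPM (20 UMIs) against 11.4 CPM in ENCCs (ratio 3.12, 1.89 to 4.86), and SNAI1 was at 23.2 CPM against 11.8 CPM (ratio 1.97, 1.04 to 3.39). SNAI2 had 1 UMI in 47 cells (1.78 CPM against 32.8 CPM; ratio 0.0544, 0.00138 to 0.304), and ZEB2 was at 17.8 CPM against 129 CPM (ratio 0.138, 0.0662 to 0.254). TWIST2 had 2 UMIs (ratio 9.49, 1.08 to 38.8). Of 6 factors with enough UMIs, 3 were called higher (TWIST1, MSX1 and ZEB1; background 10.0% of 12131 genes) and 2 lower (background 16.0%). The authors describe the Mes cluster by TWIST1 and MSX1. Both reached the UMI minimum only through Mes, with 91 and 58 UMIs there and 14 and 42 in ENCCs. The count of factors called higher thus describes the class and does not test it. The SNAI and ZEB families each had one member higher and one lower in Mes than in ENCCs by level, with SNAI1 just short of 2-fold. Of the 9 neural crest specifiers, 5 were called lower in Mes and none higher, with SOX10 at 5.35 CPM against 103 CPM and FOXD3 at 1.78 CPM against 23.1 CPM. SOX9, TFAP2A, TFAP2B and PAX7 were not called, with TFAP2A at 66.0 CPM against 41.9 CPM.

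**Figure D4:**
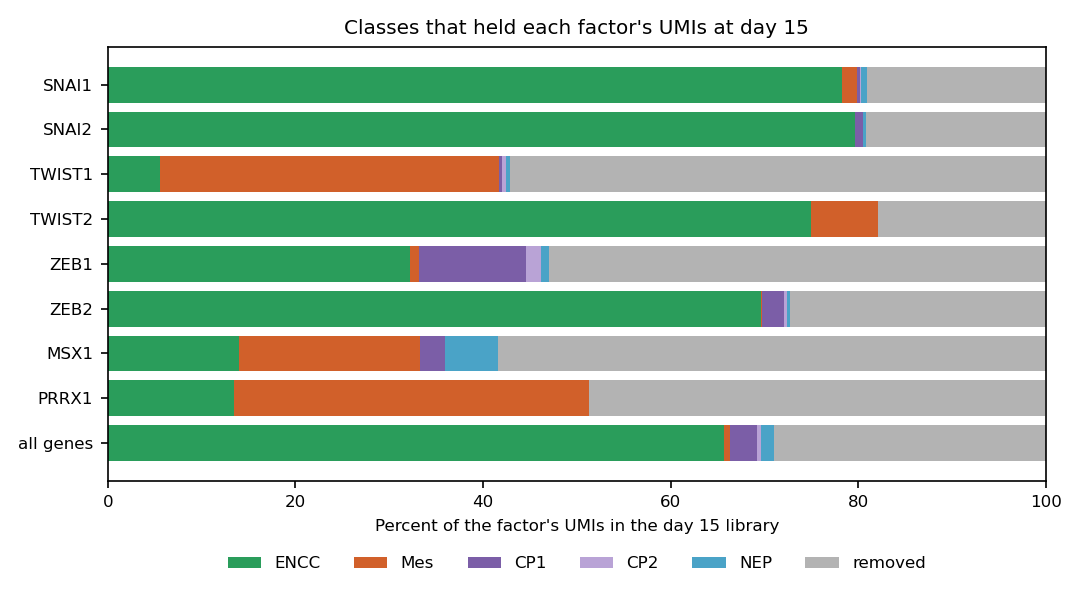
Percent of the D15 UMIs of each factor found in each class (stacked bars), beside the split of the UMIs of all genes. Mes held 36.1% of TWIST1 UMIs, 37.8% of PRRX1 UMIs and 19.3% of MSX1 UMIs but 0.660% of all UMIs, and removed cells held more than their 29.0% of all UMIs for TWIST1, ZEB1, MSX1 and PRRX1.

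Most of the TWIST1 and MSX1 UMIs of D15 lay outside the kept classes. The removed cells held 144 of 252 TWIST1 UMIs (57.1%), 176 of 301 MSX1 UMIs (58.5%) and 18 of 37 PRRX1 UMIs (48.6%). The 144 TWIST1 UMIs came from 46 of 984 removed cells. Chosen by their TWIST1 UMI, these 46 cells had MSX1 at 88.1 CPM against 3.44 CPM in the other 938, PRRX1 at 13.9 CPM against 0.127 CPM and mesenchymal markers at 546 CPM against 98.8 CPM. Their ENCC markers were at 233 CPM against 561 CPM and their ZEB2 at 53.8 CPM against 118 CPM. Both marker sums lay between those of the other removed cells and those of Mes, where mesenchymal markers summed to 1099 CPM and ENCC markers to 82.0 CPM. Their median depth was 20638 UMIs, against 12291 in Mes and 21416 in the other removed cells.

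TWIST1, MSX1 and PRRX1 were found together in single cells. Of 47 Mes cells, 45 held a UMI of at least 1 of these 3 factors, 14 of 1 factor, 28 of 2 and 3 of all 3. Of 4934 D15 ENCCs, 60 held 1 of the 3 and 0 held 2, at a similar depth. Of the removed D15 cells, 72 held 1, 23 held 2 and 10 held all 3, and 29 held both TWIST1 and MSX1 where the product of the shares gives 4.07. Within Mes the pair met in 22 cells, against a product of 22.8. At D10, 444 of 1811 NEP cells, 65 of 239 NNE cells and 125 ENCCs held 1 of the 3 and none held 2, and nearly all of these UMIs were of MSX1, since TWIST1 had 4 UMIs and PRRX1 had 0 in that library.

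**Figure D5:**
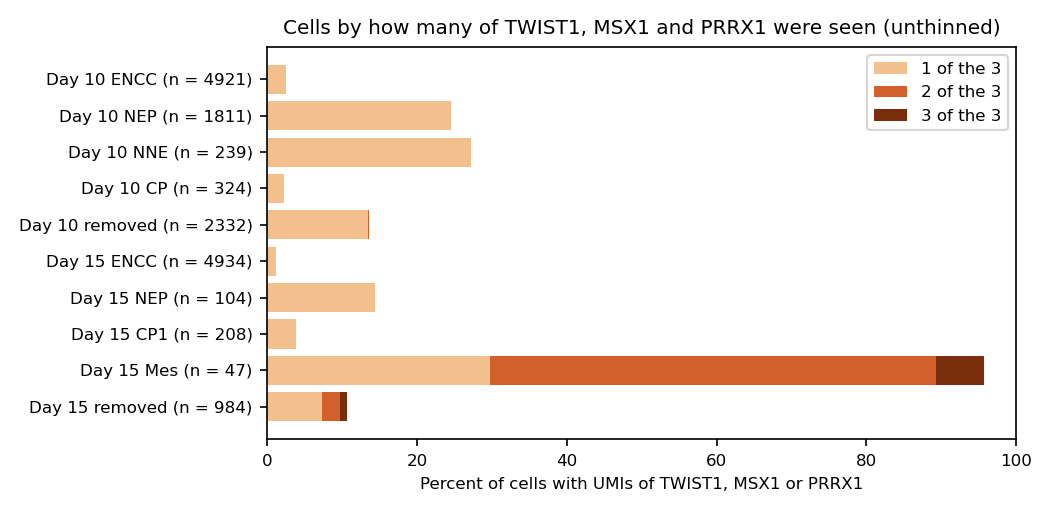
Percent of cells in each class with UMIs of 1, 2 or all 3 of TWIST1, MSX1 and PRRX1. In Mes, 28 of 47 cells held 2 of them and 3 held all 3, and outside Mes cells with 2 or more were found among the removed cells.

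The partners of TWIST and of the SNAI and ZEB repressors were counted from fixed lists. ID proteins, which bind E-proteins and keep them from DNA, had mostly lower mRNA levels at D15. In ENCCs, 5 of 7 listed E-protein and ID genes were called lower (background 10.7%) and 1, ID4, higher (background 11.1%). ID1 was at 66.1 CPM at D10 and 6.77 CPM at D15 and ID3 at 714 and 79.4 CPM. The E-proteins TCF4 and TCF12 were at 79.5 and 26.0 CPM and at 68.8 and 34.2 CPM, the last close to the 2-fold line, while ID4 was at 10.9 and 30.6 CPM. In numbered ENCCs alone ID1 was at 38.2 and 6.77 CPM and ID3 at 672 and 79.6 CPM. Again 5 genes were called lower (background 9.27%) and 1 higher (background 11.8%). In Mes, where TWIST1 was high, TCF4 was at 146 CPM against 26.0 CPM in ENCCs and TCF12 at 76.7 CPM against 34.2 CPM. There 3 of the 7 genes were called higher (background 10.0%) and 1 lower (background 16.0%), the latter near the share of all genes. Of 10 co-repressors, 2 were called higher in D15 than in D10 ENCCs and none lower, a count near the background of 11.1% and 10.7% each way, with the SNAI and ZEB partner CTBP2 at 46.4 and 96.8 CPM and the KDM1A partner RCOR1 at 4.55 and 12.9 CPM.

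Epithelial, mesenchymal and signalling genes differed alongside. Over all cells, 15 of 17 tested epithelial genes were called lower at D15 (background 16.2%) and none higher (background 11.7%). Their median was −2.21 on the log2(CPM + 1) scale against −0.15 for all tested genes. In ENCCs, 7 of 11 were called lower (background 10.7% of 13216 genes) and 1 higher, the splicing regulator ESRP1 (background 11.1%). The D10 class includes the 256 ENCCs labelled Non-NC outside the numbered subclusters, with their NNE markers at 899 CPM. In numbered ENCCs alone, 4 of 8 tested epithelial genes were called lower (DSP and the keratins KRT8, KRT18 and KRT19) and 1 higher, against backgrounds of 9.27% and 11.8% of 13049 genes. CDH1 itself was at 4.77 CPM at D10 and 0.247 CPM at D15 over all cells. Of 14 tested mesenchymal and migratory genes in ENCCs, 4 were called higher and 4 lower: the metalloproteinase MMP2 was at 20.4 CPM at D10 and 96.9 CPM at D15 and the cadherin CDH6 at 50.6 and 163 CPM, whereas the collagens COL1A1 and COL1A2 were at 68.2 and 2.24 CPM and at 424 and 146 CPM. Of the signals that induce these factors, 8 were tested in ENCCs, with TGFBR2 called higher (0.839 and 3.22 CPM) and the ligands BMP4 (6.87 and 0.304 CPM) and BMP7 (4.52 and 0.609 CPM) called lower. In numbered ENCCs alone BMP4 was at 1.61 and 0.288 CPM and BMP7 at 3.29 and 0.540 CPM, and the same 3 signals were called. Of 9 neural crest specifiers, SOX9 was called higher (6.82 and 27.4 CPM) and TFAP2B and PAX3 lower. The same ENCC backgrounds of 11.1% higher and 10.7% lower apply to these lists. The 1 signal of 8 and 1 specifier of 9 called higher were near that share of all genes.

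Within the crest at D15, the listed genes were compared between the SNAI2-high ENCC 3′ and the other numbered ENCCs, with 1.37% of all genes called higher and 3.37% lower as background. ETS1, an invasion-associated crest factor, was at 41.4 CPM against 18.9 CPM and was 1 of 9 crest specifiers called higher, with PAX7 (1.34 against 3.21 CPM) called lower. Of 14 mesenchymal and migratory genes, ACTA2, smooth muscle actin, was called higher (17.2 against 6.80 CPM) and POSTN lower (0.122 against 1.65 CPM), and of 6 epithelial genes ESRP1 was called higher (2.32 against 0.845 CPM). None of the 10 co-repressors and none of the 6 tested signals was called. Of the 7 E-protein and ID genes, ID1 and ID3 were called lower.

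The genes most like each factor across 17 classes of both stages were ranked by Pearson's r of log2(CPM + 1) over 10319 genes, as a description without a test. All genes of a class share its cells and depth. SNAI2 was most like EDNRB (r = 0.86), the endothelin receptor of enteric neural crest, CRYL1 (0.83) and ARPC1B (0.81). TWIST1 was most like LUM (0.99) and TGFBI (0.92), both extracellular matrix genes, and TPM4 (0.85), over classes of which only Mes held more than 14 TWIST1 UMIs. MSX1 was most like MFAP1 (0.92), GLT8D2 (0.90) and BMP4 (0.89). ZEB1 was most like B3GAT1 (0.93), PPP2R5B (0.89) and GNG4 (0.88), and ZEB2 like CELF2 (0.91) and the GDNF-family receptor GFRA2 (0.87). SNAI1 was most like NID1 (0.94), a basement membrane protein, COL25A1 (0.89) and VSIG10L (0.87).

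Between the factors themselves, paralogs were not alike over these 17 classes. ZEB1 and ZEB2 had r = 0.04 and SNAI1 and SNAI2 r = 0.29. The most opposed pairs were ZEB2 and MSX1 (r = −0.79) and SNAI2 and ZEB1 (r = −0.75). TWIST1 and MSX1 had r = 0.41, since both were high in Mes and MSX1 also in NEP and NNE. TWIST2 and PRRX1 had too few UMIs to be ranked.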

How the data were processed

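The D10 and D15 libraries of the H9 line were analysed, with 1 library per stage. The authors pseudoaligned reads with kallisto and bustools and deposited raw UMI counts per gene and cell, with cell annotation made in Seurat. The submitters' processing notes name Cell Ranger, Seurat 4.0.4 and GRCh38. The annotation release and strand setting of the counting are not given in the sources used here, so sense and antisense reads at ZEB1 and ZEB2 may not be separated. The deposited metadata also hold the mitochondrial percent of each cell, which served only the authors' filter. Classes are the authors' own annotation. No doublet caller was run, and doublets among the deep removed cells were not tested.

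Counts were summed per class and scaled to CPM (counts per 1e6 UMIs of the class) in Python 3.11.15 (numpy 2.4.6, scipy 1.17.1, pandas 2.3.3), with exact 95% Poisson and Clopper-Pearson intervals that cover counting error only. With no replicates, no p-value was computed. TMM factors came from edgeR 4.0.16 in R 4.3.3. The fixed rule named the 8 factors, the 3 most alike genes of each factor with at least 100 UMIs, and 7 lists (86 genes), of which a few members are named. For ZEB2, 1 of these alike genes is not reported here. Members and lists were chosen with earlier results of these data known. The ratios of NEP, CP and CP1 to ENCCs and of ENCC 3′ to other ENCCs, the stage comparison in numbered ENCCs alone, the pairs of SNAI2 with epithelial genes in NNE, and the alternative without shared barcodes were added after the data were seen. The scripts were tested on simulated data.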

Additional observations from a re-analysis of the deposited data

How the results depend on the processing

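Of 114 ratios of the factors under alternative settings, 94 stayed within the 95% interval of the reported ratio, including all 27 without the 102 shared barcodes and all 19 without the 6% of cells with the most UMIs. With TMM scaling, the D15 to D10 ratios over all cells were 1.02 for SNAI1, 1.14 for SNAI2, 2.80 for ZEB1, 1.30 for ZEB2 and 0.198 for MSX1. In ENCCs they were 0.902 for SNAI1, 0.953 for SNAI2 and 1.02 for ZEB2. ZEB1 in ENCCs had a TMM ratio of 2.12, inside its 95% interval but past 2-fold. With 1 CPM added to each level, the ratio was 3.75 for TWIST1 and 0.211 for MSX1 over all cells, 1.22 for TWIST1 and 0.360 for MSX1 in ENCCs, and 131 for TWIST1, 59.6 for MSX1 and 23.8 for PRRX1 in Mes over ENCCs. A mean over cells gave 2.07 for ZEB1 and 1.10 for ZEB2. Kept cells alone gave 1.64 for ZEB1 and 0.124 for MSX1, and numbered ENCCs alone 0.397 for MSX1. All 16 shares of cells differed when cells were thinned to 5000 UMIs or when 2 UMIs were asked for.

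The number of genes past 2-fold depended on the UMI minimum, by the construction of that limit, and on adding 1 CPM. Over all cells, 1780 genes were higher at D15 with at least 50 UMIs, 4216 with at least 1 UMI and 1156 with 1 CPM added, and 2475, 6264 and 1379 were lower. In ENCCs, 1461 were higher and 4128 with at least 1 UMI, and 1408 were lower, with 2481 at 10 UMIs, 4807 at 1 UMI and 845 with 1 CPM added. For Mes over ENCCs, 1213 were higher (1965 at 10 UMIs, 2255 at 1 UMI) and 1947 lower (4110 and 9403). For NNE over ENCCs, 1528 were higher (2692 and 4033) and 1264 lower (2365 and 6761). For ENCC 3′, 166 were higher (550, 1778, and 87 with 1 CPM added) and 407 lower (1140, 4646 and 133).

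Depth limits TWIST1, TWIST2 and PRRX1 most, and SNAI2, ZEB1 and ZEB2 in the 47 Mes cells, which rest on 1, 20 and 10 UMIs. No paired analysis was possible because each stage is a single library whose pooled repeats are not separated in the annotation.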

Other observations

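Relatives of the 8 factors that the report did not describe also differed between the stages. SCRT1 and SCRT2, SNAI-family zinc-finger genes of neurons, had 5 and 10 UMIs over all cells at D10 and 77 and 173 at D15, ratios of 12.8 (5.24 to 40.5) and 14.4 (7.62 to 30.5). In CP1, SCRT1 was at 7.54 CPM and SCRT2 at 9.63 CPM, against 0.0537 and 0.286 CPM in the D15 ENCCs. TCF15, a basic helix-loop-helix gene related to TWIST1, had 6 UMIs at D10 and 337 at D15 (ratio 46.6, 21.2 to 128), and was at 10.5 CPM in CP1. HAND1 was at 9.21 CPM in NNE, from 17 UMIs, against 1 UMI in the D10 ENCCs. SNAI3 had 5 and 3 UMIs in the 2 libraries.

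Across the cell cycle phases that the authors called, SNAI2 in ENCCs was at 40.6, 42.5 and 34.2 CPM in G1, S and G2M cells at D10 and at 37.2, 31.0 and 30.3 CPM at D15. At D10, ZEB1 was at 4.93 CPM (3.79 to 6.31) in G1 and 7.86 CPM (6.37 to 9.60) in G2M, and MSX1 at 5.80 CPM (4.55 to 7.28) in G1 and 2.67 CPM (1.83 to 3.78) in S, in each case with intervals that did not overlap. At D15, ZEB1 was at 12.5, 10.4 and 11.9 CPM in the 3 phases. MSX1 ran the other way at D15, at 0.513 CPM (0.235 to 0.974) in G1 and 0.963 CPM (0.610 to 1.45) in S, with intervals that overlapped. The D10 phases include the 256 ENCCs labelled Non-NC, which held 80 of the 143 MSX1 UMIs. Their part in the MSX1 gap was not tested.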
